A study of Mus musculus with 12 samples.

Results

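The Schlafen genes examined here are the 7 mouse family members Slfn1, Slfn2, Slfn3, Slfn4, Slfn5, Slfn8 and Slfn9, taken by gene symbol from a table of 43278 symbols measured by RNA sequencing in peritoneal macrophages (PMφs). The PMφs were elicited with thioglycolate in adult wild-type C57BL/6J mice of both sexes, and cells pooled from litters were divided among 4 cultures. Control PMφs received neither agent, the oxLDL group was cultured for 24 h with 100 µg/ml human oxidized low-density lipoprotein, the LPS group received 10 ng/ml bacterial LPS, and the oxLDL+LPS group received oxLDL and then LPS. There were 3 libraries in each group, 12 in all, so every value comes from a pool of animals and the time in LPS is not given for these libraries in the sources used here. Values are normalized counts, that is, read counts that had already been scaled between libraries. Of 4 further Schlafen symbols in the table, the pseudogene Slfn10-ps was measured in all libraries, Slfn14 and Slfnl1 never exceeded a normalized count of 1, and Slfn5os was at 0 in all 12 libraries.

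Schlafen proteins are found in mammals and are known as products of interferon-inducible genes in immune cells. They share an amino-terminal Schlafen core, through which several family members bind or cut transfer RNA. The mouse family is usually divided into short proteins (Slfn1 and Slfn2), intermediate proteins (Slfn3 and Slfn4) and long proteins with a helicase-like carboxy-terminal part (Slfn5, Slfn8 and Slfn9). Slfn2 is known for keeping T cells and monocytes quiescent, and Slfn4 for its expression in cells of the myeloid lineage.

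All 7 genes lie within 263.8 kb of chromosome 11 (GRCm38), from 82951349 at the start of Slfn5 to 83215154 at the end of Slfn3. Slfn5 (82951349-82964840), Slfn2 (83065112-83070678), Slfn1 (83116849-83122670), Slfn4 (83175186-83190216) and Slfn3 (83191330-83215154) are on the plus strand. Slfn9 (82978390-82991830) and Slfn8 (83002158-83020810) are on the minus strand, and Slfn8 adjoins the pseudogene Slfn10-ps (83028130-83040042). The coding sequence, without its stop codon, is 1011 bases in Slfn1 and 1134 in Slfn2, against 1920 in Slfn3, 1806 in Slfn4, 2652 in Slfn5 and 2730 in both Slfn8 and Slfn9. Slfn8 and Slfn9 were the most alike, with 92.7% identity over the coding alignment, followed by Slfn3 and Slfn4 with 85.3% and by Slfn1 and Slfn2 with 63.0%. Such likeness can divide reads between neighbors. At a length of 150 bases, which is the length of 1 read of a pair, none of the windows of Slfn1, Slfn2, Slfn4 or Slfn8 recurred exactly in another gene, against 1.29% of the windows of Slfn3 (shared with Gm11427), 1.46% of those of Slfn9 (shared with Slfn10-ps) and 5.46% of those of Slfn5. The Slfn5 windows are shared with Slfn5os, an antisense gene whose exons overlap it, and that gene had no counts.

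Promoter windows of 300 bases, 250 before and 50 after each start site, were taken from RefSeq (GRCm38.p6), where all 7 genes were matched. They were searched on both strands for GAAA, any 2 bases and GAAA, the core of the interferon-stimulated response element (ISRE) bound by interferon-activated transcription factors. This motif was in the windows of the 3 long members and in none of Slfn1, Slfn2, Slfn3 or Slfn4. It was in 3.44% of all 32851 windows, and 3.99% of gene symbols had it in any of their windows. A match to the NF-κB consensus, found in 8.46% of windows and for 9.55% of symbols, was in Slfn1 and Slfn9. TTC, any 3 bases and GAA, the core of the interferon-γ activated site, was in none of the 7 members. That core was present in 8.30% of windows and for 9.55% of symbols. The windows of Slfn4, Slfn2 and Slfn3 thus held no match to any of the 3 motifs, which says only that these letters are not within that distance. The stretches that hold the ISRE cores of the long members and the NF-κB match of Slfn1 read as follows, 5′ to 3′, with the ISRE core (Slfn8, Slfn9 and Slfn5) or the NF-κB match (Slfn1) in capitals.
Slfn8, chr11:83020811-83020930, minus strand: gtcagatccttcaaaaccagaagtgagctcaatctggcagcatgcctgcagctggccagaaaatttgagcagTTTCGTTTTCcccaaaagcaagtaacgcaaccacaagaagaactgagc
Slfn9, chr11:82991831-82991950, minus strand: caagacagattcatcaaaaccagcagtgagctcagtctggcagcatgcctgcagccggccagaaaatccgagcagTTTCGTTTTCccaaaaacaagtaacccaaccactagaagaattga
Slfn5, chr11:82951882-82951981, plus strand: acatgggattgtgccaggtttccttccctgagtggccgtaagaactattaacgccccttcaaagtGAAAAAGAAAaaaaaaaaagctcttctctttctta
Slfn1, chr11:83116700-83116819, plus strand: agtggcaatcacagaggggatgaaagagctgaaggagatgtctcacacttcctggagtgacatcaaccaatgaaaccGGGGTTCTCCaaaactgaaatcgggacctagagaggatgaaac

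The ISRE core spans −48 to −39 from the nearer of 2 annotated Slfn8 start sites and −45 to −36 from that of Slfn9, where the same 10 letters occur on the strand opposite to the motif as written. The Slfn8 and Slfn9 stretches were identical at 105 of 123 aligned positions (85.4%). In Slfn5 the match is further upstream, at −155 to −146, and runs into a stretch of adenines, and the start site it is counted from lies within the annotated span of the gene. The NF-κB match of Slfn1 lies at −43 to −34, and that of Slfn9 begins at −214, outside the stretch printed. No matches of different motifs overlapped. A motif match is a description of the sequence, and binding was not measured in this series.

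**Figure D1:**
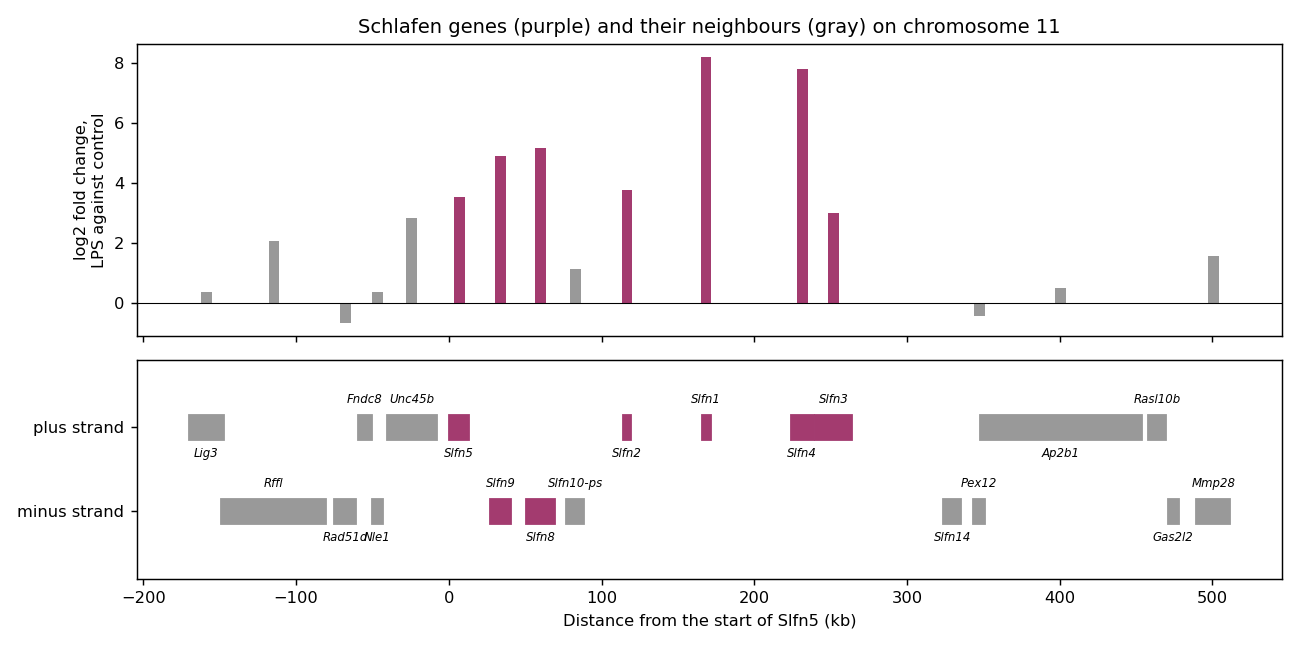
Lower panel, the 7 Schlafen genes (purple) and their neighbors (gray) drawn to scale by strand, with distance from the start of Slfn5 in kb on the x axis. Upper panel, log2 fold change of LPS against control PMφs (linear axis) for genes that could be tested. Values run from 2.99 to 8.19 over the 7 Schlafen genes, and Slfn10-ps between them is at 1.11. Unc45b, left of Slfn5, has normalized counts of at most 11.

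In control PMφs the family was expressed over a wide range. Per kb of exon, Slfn2 had the highest level, with a mean normalized count of 1272 ± 83.8 per kb (SD, n = 3), followed by Slfn5 at 464 ± 27.1 and Slfn8 at 129 ± 11.9. Slfn4 (24.8 ± 3.82), Slfn3 (19.4 ± 1.34) and Slfn9 (18.9 ± 0.768) came next, and neighbors in that order overlapped between libraries. Slfn1 was lowest, at 12.2 ± 4.03 per kb, and did not overlap Slfn9. The 7 genes together had summed normalized counts of 5618, 5983 and 6035 in the 3 control libraries, of which Slfn5 made up 48.8% to 51.9% and Slfn2 33.1% to 37.5%.

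LPS raised all 7 Schlafen genes, from 7.94-fold for Slfn3 to 292-fold for Slfn1. For each member the lowest LPS library was above the highest control library. In the limma fit across all genes all 7 were called higher at an adjusted p under 0.1, where 31.4% of the 13023 genes tested were called higher, and 32.1% of genes were higher with no overlap of the libraries. The median log2 fold change was 4.90 over the 7 members and -0.001 over all genes tested.

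Among the short members, Slfn1 went from normalized counts of 14, 27 and 27 in control libraries to 5441, 7483 and 7209 with LPS. It was barely measured before LPS and abundant after it, with a log2 fold change of 8.19 (SE 0.26, limma adjusted p = 3.717e-07), which was rank 49 from the top among the 13023 genes. Slfn2, the quiescence gene, went from 2104, 1983 and 2261 to 25169, 28111 and 33570. Its log2 fold change of 3.77 (SE 0.13, adjusted p = 4.715e-07) was less than that of Slfn1, and its level per kb was still the highest of the family. Hence the ratio of Slfn2 to Slfn1 was between 73.4 and 150.3 in control libraries and between 3.76 and 4.66 with LPS.

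The intermediate members, which are close copies of each other, differed widely in response. Slfn3 went from normalized counts of 65, 62 and 71 to 473, 505 and 624, a log2 fold change of 2.99 (SE 0.15, adjusted p = 3.038e-06). Slfn4 started at a like level, with 81, 109 and 105, and reached 25684, 16038 and 25885, a log2 fold change of 7.80 (SE 0.21, adjusted p = 2.293e-07). The ratio of Slfn4 to Slfn3 was 1.25 to 1.76 in control libraries and 31.8 to 54.3 with LPS. The groups did not overlap in this ratio, and an exact two-sided permutation test gave p = 0.1, the smallest that 3 against 3 libraries allow. The share of other gene pairs whose ratios do not overlap is not given here. The second LPS library was the lowest of its group for Slfn4 but not for Slfn3.

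Among the long members, Slfn5 went from normalized counts of 2760, 3103 and 2942 to 32896, 30473 and 37396, with a log2 fold change of 3.51 (SE 0.11, adjusted p = 3.717e-07). Slfn8 went from 485, 581 and 517 to 17033, 18015 and 22330, with a log2 fold change of 5.17 (SE 0.13, adjusted p = 1.642e-07). Slfn9 went from 109, 118 and 112 to 3165, 3058 and 4025, with a log2 fold change of 4.90 (SE 0.13, adjusted p = 1.892e-07). In each of the 3 genes the third LPS library was the highest. These are the members with an ISRE core in the promoter window, with log2 fold changes from 3.51 to 5.17, and the 4 members without one ranged from 2.99 to 8.19.

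The order of levels per kb changed with LPS. Slfn2 stayed first at 17400 ± 2562 per kb, and Slfn4, Slfn5 and Slfn8 followed at 5685 ± 1420, 5310 ± 555 and 4675 ± 689, with neighbors overlapping. Slfn1, last in control PMφs, came after them at 3600 ± 595. Slfn9 (573 ± 88.9) and Slfn3 (157 ± 23.3) were at the end. The summed normalized counts of the family were 109861, 103683 and 131039 in the LPS libraries. Slfn4 made up between 1.44% and 1.82% of that sum in control libraries and between 15.5% and 23.4% with LPS.

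**Figure D2:**
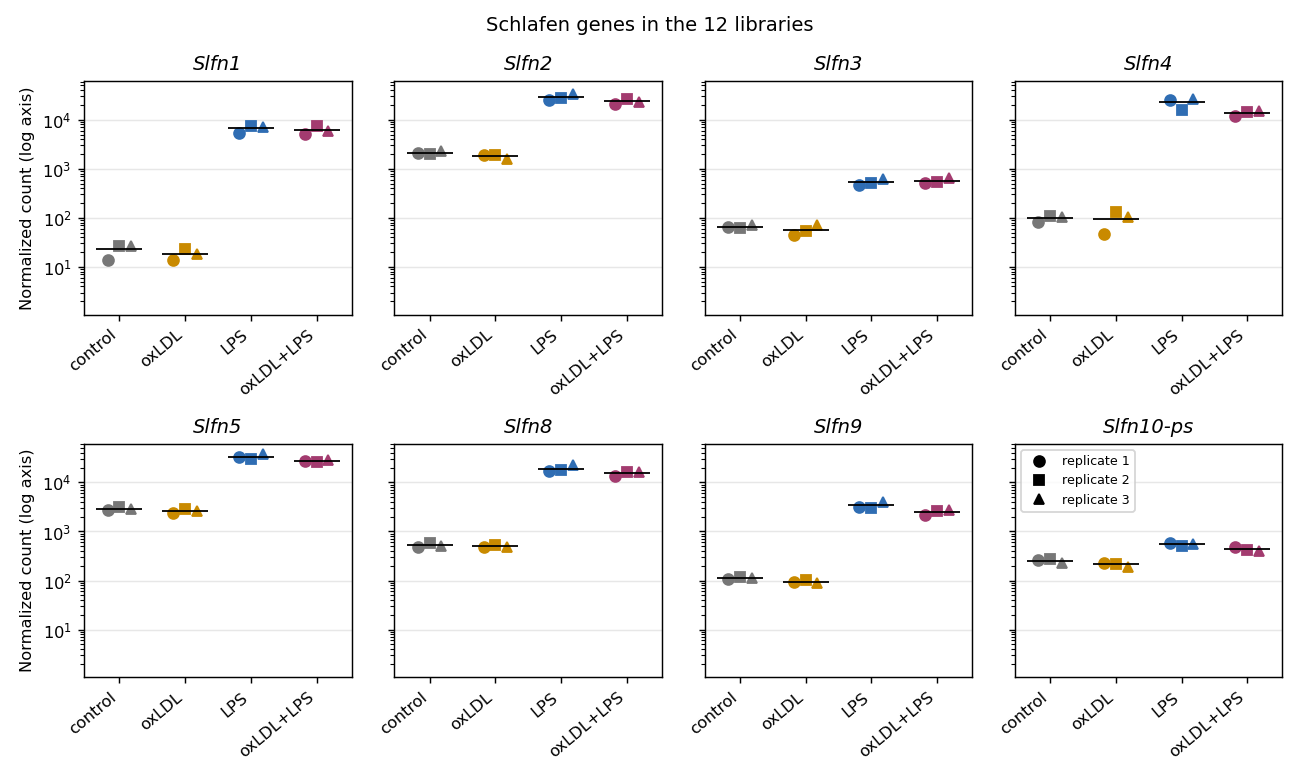
Normalized counts (log axis) of the 7 Schlafen genes and the pseudogene Slfn10-ps in the 4 groups on the x axis, with 1 point per library, the marker shape giving the replicate number, and a line at the group mean. In all 7 members every library with LPS is above every library without it, with Slfn1 between 14 and 7504 and Slfn4 between 46 and 25885.

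PMφs with oxLDL accumulation also raised all 7 genes after LPS. Against the oxLDL libraries, every member was called higher, with no overlap, where 28.2% of 12900 genes were called higher and 29.6% were higher with no overlap. The median log2 fold change was 4.70 over the members and -0.02 over all genes tested. Slfn1 went from normalized counts of 14, 23 and 18 to 5034, 7504 and 5847, a log2 fold change of 8.32 (SE 0.21, limma adjusted p = 3.587e-07). Slfn4 went from 46, 130 and 106 to 11721, 14354 and 15012, a log2 fold change of 7.29 (SE 0.35, adjusted p = 5.595e-06). Its spread was widest before LPS, where the first oxLDL library was below every control library.

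Fold changes of the other members after oxLDL were close to those without it. Slfn8 had a log2 fold change of 4.93 (SE 0.099, adjusted p = 1.469e-07), Slfn9 of 4.70 (SE 0.11, adjusted p = 2.659e-07) and Slfn2 of 3.72 (SE 0.13, adjusted p = 1.161e-06). The values were 3.37 for Slfn5 (SE 0.10, adjusted p = 5.826e-07) and 3.31 for Slfn3 (SE 0.21, adjusted p = 1.933e-05). In the oxLDL+LPS group Slfn2 was again first per kb at 14350 ± 1690, followed by Slfn5 at 4305 ± 223. Slfn8 (3727 ± 403), Slfn4 (3455 ± 439) and Slfn1 (3288 ± 675) came next with neighbors overlapping, and Slfn9 (420.5 ± 42.9) and Slfn3 (166.5 ± 22.4) were last.

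**Figure D3:**
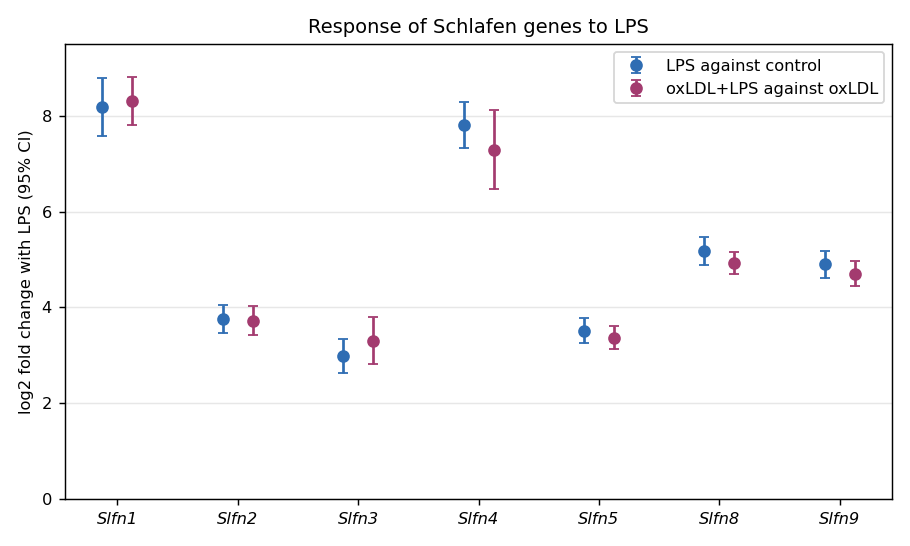
log2 fold change with LPS (y axis) of each Schlafen gene (x axis), in PMφs without oxLDL (blue) and with oxLDL (purple). Points are limma estimates and bars 95% confidence intervals from 3 against 3 libraries. The estimates lie between 2.99 and 8.32, and the blue and purple intervals overlap for every gene.

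Whether the response to LPS differed with oxLDL was tested as an interaction in all 12 libraries. No member passed, and neither did any of the 13482 genes tested (percent called 0, with 418 genes at an unadjusted p under 0.05). The log2 difference between the responses was -0.51 for Slfn4, with a 95% confidence interval from -1.51 to 0.49. It was 0.32 for Slfn3 (from -0.25 to 0.89) and 0.12 for Slfn1 (from -0.68 to 0.93). The other members had intervals between -0.60 and 0.36, with estimates from -0.24 to -0.04. These intervals are from the fit without a replicate block. With the replicate number as a block, the SE was 0.17 against 0.37 for Slfn1 and 0.16 against 0.26 for Slfn3. It was 0.39 against 0.46 for Slfn4, 0.12 against 0.16 for Slfn8 and 0.18 in both fits for Slfn2. No member was called with the block either, with a limma adjusted p of 0.708 for Slfn3 and for Slfn8. The intervals without the block leave room for differences of that size, so the responses were not shown to be alike.

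Before LPS, oxLDL accumulation moved no Schlafen gene past the threshold in the fit without a replicate block. All 7 were lower in the fit, with log2 fold changes from -0.26 to -0.08 and a median of -0.23 against -0.01 over all genes. No gene of 12751 was called (percent called 0), while 381 had an unadjusted p under 0.05. Slfn9 went from normalized counts of 109, 118 and 112 to 92, 102 and 91, a log2 fold change of -0.25 (SE 0.13, limma adjusted p = 1). Slfn2 went from 2104, 1983 and 2261 to 1951, 1924 and 1556, a log2 fold change of -0.23 (SE 0.10, adjusted p = 1). These were the members whose groups did not overlap, in the lower direction in which 3.91% of genes did not, and the exact permutation p was 0.1 for each.

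The labels do not say that a replicate number marks a shared pool of cells, but same-numbered libraries deviated together, and with the number as a block the call for Slfn5 changed. Slfn5 had normalized counts of 2384, 2874 and 2664 with oxLDL, and its change from the same-numbered control was -13.6%, -7.38% and -9.45%. Its log2 fold change of -0.15 was then called (SE 0.04, adjusted p = 0.0967), where 2.92% of genes were called lower. The call was also made without replicate 3 (adjusted p = 0.00337) and was not made without replicate 1 or replicate 2. A fit with 1 number left out has 1 residual degree of freedom. Without replicate 3, 753 of 12451 genes tested were called lower. Slfn2 had an adjusted p of 0.171 in the blocked fit, and Slfn9 one of 0.323. For the remaining members oxLDL gave normalized counts of 14 to 23 for Slfn1, 44 to 73 for Slfn3, 46 to 130 for Slfn4 and 480 to 521 for Slfn8, all overlapping the controls. Slfn4 alone changed direction when a library was left out, to 0.27 without the first oxLDL library.

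Between LPS and oxLDL+LPS libraries, Slfn4 was the member that differed most. Its normalized counts of 25684, 16038 and 25885 with LPS stood against 11721, 14354 and 15012 after oxLDL. The change of the mean was -39.2%, and by replicate number it was -54.4%, -10.5% and -42.0%. Without a block its log2 fold change of -0.69 (SE 0.22) was not called (limma adjusted p = 0.698). With the replicate number as a block it was called lower (SE 0.16, adjusted p = 0.0370), where 8.74% of the 12786 genes tested were called lower.

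The adjacent long genes Slfn8 and Slfn9 gave the other blocked calls. Slfn9 had normalized counts of 3165, 3058 and 4025 with LPS and 2220, 2596 and 2708 after oxLDL, a log2 fold change of -0.44 (blocked SE 0.08, adjusted p = 0.0187, against 0.698 without the block). Slfn8 had 17033, 18015 and 22330 with LPS and 13344, 16102 and 16293 after oxLDL, a log2 fold change of -0.32 (blocked SE 0.10, adjusted p = 0.0892, against 0.732 without the block). In both genes the second pair of libraries was the closest, at -15.1% for Slfn9 and -10.6% for Slfn8. None of the 3 blocked calls was made without replicate 1 or without replicate 3. Left out, replicate 2 leaves all 3 calls standing and adds Slfn2 (adjusted p = 0.0313), and the number of genes called went from 1682 to 2945. That fit has 1 residual degree of freedom, and 1846 of its 12334 genes tested were called lower.

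Without a block no gene was called in this comparison (percent called 0, with 890 genes at an unadjusted p under 0.05). Slfn4, Slfn5, Slfn8 and Slfn9 nevertheless had no overlap between groups, where 6.39% of genes were lower with no overlap, and each had an exact permutation p of 0.1. Slfn5 fell short in both fits, with normalized counts of 32896, 30473 and 37396 against 27947, 25607 and 28148 and a log2 fold change of -0.30 (blocked adjusted p = 0.144). Slfn2 gave -0.27 (blocked adjusted p = 0.211) and Slfn1 gave -0.14 (blocked adjusted p = 0.371). Slfn3 was the exception in direction, with 473, 505 and 624 against 508, 542 and 654, a log2 fold change of 0.09 (blocked adjusted p = 0.533), which became -0.02 without the third oxLDL+LPS library. The median over the 7 members was -0.30, against -0.01 over all genes. This comparison shares its oxLDL+LPS and LPS libraries with the comparisons of the response to LPS above.

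**Figure D4:**
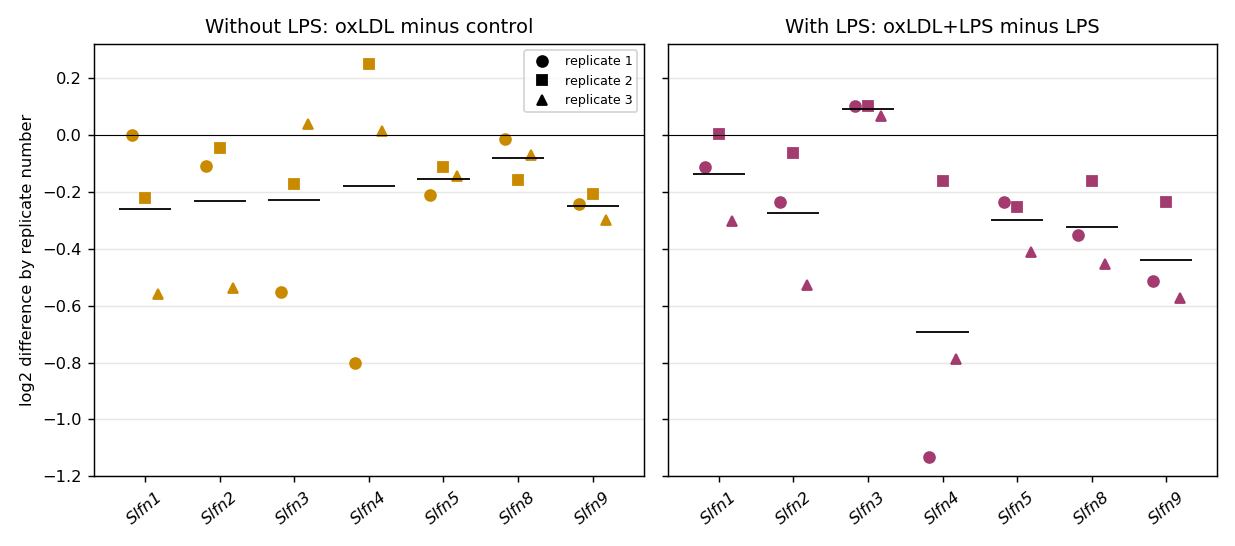
log2 difference between same-numbered libraries (y axis) for each Schlafen gene (x axis), without LPS (left, oxLDL minus control) and with LPS (right, oxLDL+LPS minus LPS). Each point is 1 replicate number and the line is the mean of 3. With LPS, Slfn2, Slfn4, Slfn5, Slfn8 and Slfn9 are below 0 in all 3 numbers, Slfn3 is above 0 in all 3, and Slfn4 runs from -1.13 to -0.16. The share of all genes with the same sign in all 3 numbers is not given here.

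Ratios within a library do not depend on how libraries were scaled. The ratio of Slfn8 to Slfn9 was 4.45 to 4.92 in control libraries, 5.11 to 5.42 with oxLDL, 5.38 to 5.89 with LPS and 6.01 to 6.20 with both. It was higher with no overlap in all 4 comparisons, each with an exact permutation p of 0.1. The ratio of Slfn4 to Slfn3 was 22.9 to 26.5 in oxLDL+LPS libraries, below the 31.8 to 54.3 of LPS libraries, also with an exact permutation p of 0.1. The ratio of Slfn2 to Slfn1 overlapped between those groups, at 3.59 to 4.25 after oxLDL.

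The pseudogene Slfn10-ps, which lies between Slfn8 and Slfn2, rose less than any member. Its normalized counts were 261, 276 and 224 in control libraries and 577, 517 and 551 with LPS, a log2 fold change of 1.11 that passed the threshold. It was also lower in oxLDL+LPS than in LPS libraries, at 492, 413 and 408, with no overlap and a call in the blocked fit. Of all genes tested there, 6.39% were lower with no overlap and 8.74% were called lower in the blocked fit. Slfn10-ps shared 11.47% of its 75-base windows with Slfn9 and Slfn8 and 2.51% of its 150-base windows with Slfn9. The part of this sharing in its values was not tested. Of 12 neighbors outside the family, 9 passed the filter on low values for LPS. Unc45b, a myosin chaperone gene next to Slfn5, passed it only through the LPS libraries, with normalized counts of 0 to 1 in control and 10 to 11 in LPS libraries, so its test is not given. Of the other 8, 5 were called higher and 1 lower, with a median of 0.44, where 31.4% of all genes tested were called higher and 30.3% lower. Rffl, a ubiquitin ligase gene, rose by 2.07 (SE 0.18, limma adjusted p = 5.058e-05). Rad51d, a homologous recombination gene, fell by 0.67 (SE 0.13, adjusted p = 0.00403). Lig3 and Ap2b1 were among the 5, at 0.36 and 0.50, and these changed sign when libraries were scaled to equal totals (Lig3) or by quantiles (Ap2b1).

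Genes of the type I interferon pathway, which acts on cells through a receptor and STAT proteins, moved with LPS in the same direction as the family. Of 13 ligand, receptor and signaling genes 12 could be tested, with a median log2 fold change of 3.08. In control PMφs given LPS, 11 were called higher and none lower, where 31.4% and 30.3% of all genes tested were. The exception, Irf3, was called lower under equal library totals and under quantile scaling, and Jak1 lost its call under quantile scaling. Ifnb1, the interferon-β ligand, was at 0 in every library without LPS and had normalized counts of 5 to 13 with LPS and 2 to 8 with both agents. The receptor gene Ifnar1 rose by 1.73 (SE 0.14, limma adjusted p = 3.995e-05), and Stat2, a subunit of the factor that binds the ISRE, rose by 4.49 (SE 0.14, adjusted p = 3.341e-07). All 8 interferon targets were called higher, against the same 31.4% of all genes, with a median of 9.77, above the 8.19 of Slfn1.

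The same lists had medians below 0 between oxLDL+LPS and LPS libraries, at -0.23 for signaling genes and -0.25 for targets, with no call without the block. In the blocked fit Ifnar1 (log2 fold change -0.42, adjusted p = 0.0314), the feedback inhibitor Socs1 (-1.03, adjusted p = 0.00648) and the chemokine gene Cxcl10 (-0.98, adjusted p = 0.0430) were called lower, and none of either list was called higher. These were 2 of 12 signaling genes and 1 of 8 targets, where 8.74% of all genes tested were called lower. Before LPS, Stat2 (-0.25, adjusted p = 0.0281) and Rsad2, an antiviral enzyme gene (-0.28, adjusted p = 0.0606), were the blocked calls of these lists, both lower with oxLDL. They were 1 of 12 signaling genes and 1 of 8 targets, where 2.92% of all genes tested were called lower. The lists were chosen with earlier results of these data known.

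Genes that act on transfer RNA, the substrate of several Schlafen proteins, were called in both directions on the deposited scale, 3 higher and 3 lower of 8 tested. The 3 higher and 3 lower calls stood against 31.4% and 30.3% of all genes, and became 0 higher and 5 lower under equal library totals. With equal totals, 2210 of all 13023 genes tested were called higher and 7200 lower. Under quantile scaling the list had 3 higher and 3 lower calls. Nsun2 and Trdmt1, which methylate transfer RNA, and Trnt1, which adds its 3′ end, were called higher with LPS, and all 3 calls were lost under equal library totals, where Trnt1 changed sign. The nuclease gene Ang fell by 1.11 (SE 0.44, limma adjusted p = 0.0661), its inhibitor Rnh1 fell by 1.64 (SE 0.11, adjusted p = 1.31e-05) and the processing enzyme gene Elac1 fell by 0.38 (SE 0.15, adjusted p = 0.0579). Of 10 quiescence genes 5 were called higher and 5 lower, against the same shares of all genes. Under equal totals 2 and 5 were called, beside the same 2210 and 7200 of all genes, and under quantile scaling 4 and 5. Cdkn1a, a cell cycle inhibitor gene, rose by 4.42 (SE 0.18, adjusted p = 1.075e-06) and Foxo3, a transcription factor gene of resting cells, fell by 2.32 (SE 0.14, adjusted p = 7.523e-06). Among the calls that rose, those for Btg2, Klf2 and Klf4 were lost under equal totals.

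The genes whose profiles were nearest to each member were found by the root mean square difference of centered log2 values over the 12 libraries, among 13474 genes. Slfn2 was nearest to Cd14, the LPS coreceptor gene, at 0.086, and next to Eif2ak2 and Sp100. The nearest to Slfn1 were Rsad2 (0.33), Gbp6 (0.34) and Isg15 (0.36), 3 interferon-inducible genes. Slfn5 was nearest to Znfx1 (0.11), Bst2 (0.11) and Parp9 (0.13). Slfn8 was nearest to Phf11d (0.13) and Slfn9 to Pde4b (0.13), with Ddx58, an RNA sensor gene, near both at 0.17 and 0.14. The distance between Slfn8 and Slfn9 themselves was 0.15. Slfn3 was nearest to Psmb9, Setdb2 and Mitd1, each at 0.19, and Slfn4 was nearest to AW112010 (0.32), Fam26f (0.39) and Gbp2 (0.39). These distances are descriptions over libraries that share one large step with LPS.

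The depth was 16.7 to 26.2 M reads on genes per library, estimated from the spacing of the values. The normalized totals were 17152972 to 17709731 without LPS and 22071853 to 26384551 with LPS. Scaling the libraries to equal totals moved the median log2 fold change of all genes from -0.001 to -0.48 for LPS, and from -0.02 to -0.40 for LPS after oxLDL. The share of calls that were higher then went from 50.9% to 23.5% and from 51.7% to 23.7%, and under quantile scaling it was 40.2% and 39.9%. The 7 Schlafen genes remained higher with LPS under both, with Slfn3 lowest at 2.51 under equal totals and a median over the members of 4.41. Which member changed least depended on the scaling, since under quantile scaling Slfn5 was at 2.86 and Slfn3 at 3.04 for LPS, and Slfn5 was at 2.79, Slfn2 at 3.18 and Slfn3 at 3.34 for LPS after oxLDL.

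The macrophage label fit the markers, with all 7 marker genes of the list above 10 in every group and summed normalized counts from 230743 to 324472. NK cell markers summed to at most 6 and B cell markers to at most 86, and of the 7 neutrophil markers Ly6g was at 0 in all libraries. T cell markers summed to 18 to 37 without LPS and 84 to 245 with LPS, mostly Lck. Mast cell (21 to 99) and dendritic cell (17 to 93) markers were low. Neutrophil markers summed to 201 to 1711, of which Mmp8 reached 1661 and was not called with LPS. Of the others, S100a9 and Ngp reached at most 1, Retnlg 3 and Camp 10. The neutrophil marker S100a8 rose with LPS like the Schlafen genes, from 31 to 37 in control to 74 to 178 in LPS libraries (log2 fold change 1.65, limma adjusted p = 0.00342), was 118 to 248 in oxLDL+LPS libraries (blocked adjusted p = 0.0583 against LPS, higher), and its part in the Schlafen results was not tested. Summed counts were 55 to 383 for eosinophil markers and 2457 to 15606 for markers of mesothelial cells and fibroblasts. Siglecf, the eosinophil marker detected, was lower with LPS, with a log2 fold change of -1.63, and lower with oxLDL in the blocked fits, and its part in the Schlafen results was not tested. The blocked fits also called other markers lower. These were Csf1r and Fcgr1 with oxLDL against control, 2 of 7 macrophage markers tested, of which Itgam was above 0. With oxLDL+LPS against LPS they were Mertk, Upk3b, Lck and Kit. Of the 7 macrophage markers, 2 were above 0 there and 5 below, with Csf1r at 0.23. Upk3b was 1 of 6 markers of mesothelial cells and fibroblasts, and Kit 1 of 3 mast cell markers. Lck was the only T cell marker tested there, and Cd3d, Cd3e, Cd3g and Cd8a never exceeded 2. Of all genes tested, 2.92% were called lower in the first comparison and 8.74% in the second, and the part of these markers was not tested. In these bulk libraries, fewer cells of a type and less RNA per cell cannot be told apart.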

How the data were processed

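Poly(A) RNA from 12 cultures of mouse PMφs, 3 in each of 4 groups, was sequenced as directional paired-end libraries. Per the labels and methods, the authors used Trimmomatic 0.32 for trimming, STAR 2.5.1b for alignment to the mm10 (GRCm38) genome and featureCounts for counts per gene; whether strand was used in counting is not given in the sources used here. The deposited values are whole-number signal, that is, counts that the authors had divided by a factor for each library and then rounded, called normalized counts here. The factors, inferred from the spacing of the values, were 0.708 to 1.31. Reads could not be restored for every library, so no count test was run. Of the symbols, 25 had been turned into dates by a spreadsheet and held at most 0.165% of a library.

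Values were tested as log2(value + 1) with limma 3.58.1 in R 4.3.3 (moderated by mean level), on the 6 libraries of each comparison or on all 12 for the interaction, keeping genes that reached 10 in 3 or more of those libraries. Calls were made at a Benjamini-Hochberg adjusted p under 0.1, and fold changes are on the log2(value + 1) scale, which understates changes of low genes. Single comparisons and ratios used exact two-sided permutation tests. The scripts were tested on simulated data. Per the methods, each pool of cells was split over the 4 groups. Libraries of the same number deviated together (18 of 18 correlations between 0.305 and 0.733 over 11186 genes). The labels do not tie a number to a pool, so the pairing rests on the methods and these correlations. Each limma fit was also run with replicate number as a block, and the permutation tests were run without pairing. Levels per kb use GENCODE exons on GRCm38, and sequences are from RefSeq. The named genes were the 7 members, the lists given with each result, and the 3 nearest profiles of each member. Members and lists were chosen with earlier results of these data known. Alternatives were other pseudocounts, filters, scalings and variance settings, and each library left out. Adgre1 was looked up as Emr1, its symbol in the table. Without a block, limma p-values weigh a difference against the spread between the 3 libraries of each group, moderated by other genes. Blocked fits use the spread left after replicate number is taken out. Permutation p-values rest on reassigning libraries to groups.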

Additional observations from a re-analysis of the deposited data

How the results depend on the processing

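The response of the 7 Schlafen genes to LPS, without and with oxLDL, kept its direction and its call under all 18 alternatives tried in each comparison. With the replicate number as a block, the genes called went from 0 to 601 for oxLDL against control and from 0 to 1682 for oxLDL+LPS against LPS, and members called from 0 to 1 (Slfn5) and from 0 to 3 (Slfn4, Slfn8 and Slfn9). The block changed no other call of a member. With the block and 1 replicate number left out, which leaves 1 residual degree of freedom in a fit of 2 groups and borrows the spread from other genes, the first comparison gave 214, 139 and 1285 genes without numbers 1, 2 and 3, with 1 member called without number 3. The second gave 71, 2945 and 0 genes, with 4 members called without number 2 and 0 otherwise, and the interaction gave 9 genes without number 2. Fitting all 12 libraries gave 29 genes for oxLDL+LPS against LPS. Leaving out 1 library without the block gave 0 to 91 genes there, the highest without the second oxLDL+LPS library, which also gave the highest of 0 to 6 in the interaction. By replicate number, 4 members had the same sign in all 3 pairs for oxLDL against control, where 2 had no overlap. The share of all genes with the same sign is not given here, so this count is not read as a result about the members. Slfn4 for oxLDL against control ranged from -0.47 to 0.27 with 1 library left out and was 0.13 with the block without number 1. Slfn3 for oxLDL+LPS against LPS ranged from -0.015 to 0.208. In the interaction, Slfn1 ranged from -0.046 to 0.42 and Slfn2 from -0.15 to 0.0679, with Slfn2 at 0.0491 under equal totals and 0.0781 under quantile scaling. The cause of these shifts was not tested. Normalized counts of 14 to 27 limit the baseline of Slfn1, and so its fold change, more than that of any other member.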
